A study of Mus musculus with 12 samples.

Results

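The knockout effect common to ileum and colon was taken as the difference between all 6 Nfat5IEC-KO arrays and all 6 Nfat5fl/fl arrays, with tissue as a block in one additive fit. It uses all 12 arrays of the series. The tested features were the 25341 transcript clusters (groups of probes for a transcript) with a gene symbol, of 41345 on the array. Each array measured total RNA of epithelial cells released with EDTA from untreated mice aged 11 weeks, which the methods give as male C57BL/6J mice. The 4 groups of 3 arrays were ileal cells (S-IECs) of Nfat5IEC-KO mice, ileal cells of Nfat5fl/fl mice, colonic cells (L-IECs) of Nfat5IEC-KO mice and colonic cells of Nfat5fl/fl mice. In the methods, Nfat5IEC-KO mice carry the floxed Nfat5 alleles and a Cre recombinase driven by the Villin promoter, which acts in the intestinal epithelium, and Nfat5fl/fl mice carry the floxed alleles without Cre, so both genotypes hold the loxP sites and only one holds Cre. The labels number the mice of each genotype 1 to 3 in both tissues, so that S-IECs and L-IECs of a number read as 1 mouse, with 3 mice of each genotype behind the 6 arrays. The additive fit counts arrays, and the counts of calls with the mouse as a block are given beside it.

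NFAT5, also called TonEBP, is a transcription factor that accumulates when the medium around a cell becomes hypertonic. It is known to raise genes that bring in or make organic osmolytes (transporters of myo-inositol, taurine, betaine and neutral amino acids, and aldose reductase) and genes of the HSP70 family, whose products refold proteins. HSP70 works in a cycle with nucleotide exchange factors such as HSP110, with J-domain proteins, and with adaptors that hand clients to HSP90.

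Nfat5 itself, on chromosome 8 of GRCm38.p6, was the check of the labels. In L-IECs its log2 values were 6.92, 6.90 and 6.997 in Nfat5IEC-KO arrays, against 7.49, 7.45 and 7.54 in Nfat5fl/fl arrays. In S-IECs they were 8.09, 7.84 and 8.01 in arrays labelled Nfat5IEC-KO, against 8.03, 8.03 and 8.17 in Nfat5fl/fl arrays. The genotypes were therefore apart in L-IECs and overlapped in S-IECs. Over both tissues the log2 difference was −0.32 (standard error 0.09, limma adjusted p = 0.222), and the effects in the tissues differed at an unadjusted p of 0.00574 (limma). The sources used here do not say which exons the probes cover. The same probes read both tissues, and why the genotypes overlapped in S-IECs alone was not tested.

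The tissue labels were checked on markers, which set the tissues apart to unequal degrees. Fabp6, the ileal bile acid binding protein, lay between 12.01 and 12.5 in all S-IEC arrays and between 4.49 and 5.22 in all L-IEC arrays. Slc10a2, the ileal bile acid transporter, was at 9.85 to 10.7 in S-IECs and still at 8.57 to 9.07 in L-IECs. Car1, a colonic carbonic anhydrase, was at 12.6 to 12.9 in L-IECs. In S-IECs Car1 was at 3.65 to 4.97 in 4 arrays but at 9.75 and 8.59 in Nfat5fl/fl replicates 2 and 3. The mean of the 15 measured colonocyte markers was 7.06 to 7.15 in Nfat5IEC-KO S-IECs, against 6.9996, 7.51 and 7.43 in Nfat5fl/fl S-IECs, highest in those same arrays. Array medians ran from 4.48 to 4.57, and arrays of 1 group correlated at Pearson r of 0.988 to 0.992 across clusters.

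The genotypes differed at 15 clusters over both tissues at a limma p, Benjamini-Hochberg adjusted over the 25341 clusters, under 0.05. Of these, 12 clusters (0.0474%) were lower and 3 (0.0118%) higher in Nfat5IEC-KO arrays. The lower clusters were 3 of Hspa8 and 1 each of Hsph1, Stip1, Etv5, Slc38a2, Mrps6;Slc5a3, Syvn1, Sgsm3, Defa21 and Scgb1b19, and the higher ones were Mt1, Csl and Zfp28. A looser call, an unadjusted p under 0.05 with at least a 1.5-fold difference, took 46 clusters as lower (0.182%) and 20 as higher (0.0789%). Across all clusters tested the median log2 difference was 0.01.

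The adjusted calls depended on how the mice were counted. With the mouse as a random block (consensus correlation −0.0734) the fit called 21 lower and 6 higher clusters, the 15 among them. With S-IECs and L-IECs of a mouse averaged, 3 mice against 3, limma called 0 lower clusters, 1675 at an unadjusted p under 0.05, and 3 higher ones, Mt1, Mt2 and Enpp3, so 14 of the 15 calls were lost and Mt1 stayed. Hsph1 was then at an adjusted p of 0.0591 and the paired Hspa8 clusters at 0.0742 (limma).

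**Figure D1:**
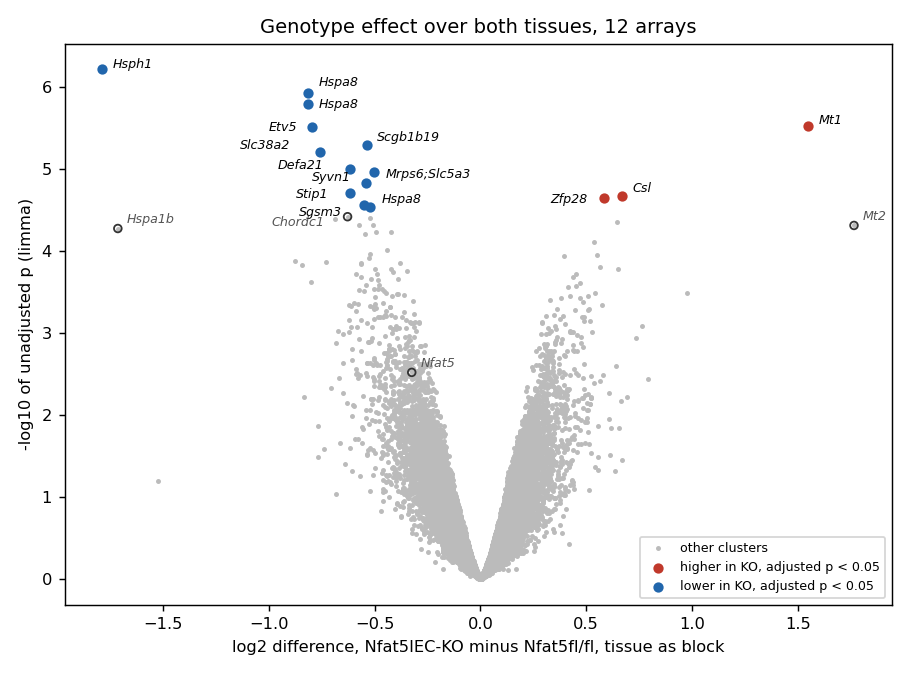
Each point is 1 of 25341 transcript clusters, with the log2 difference of Nfat5IEC-KO minus Nfat5fl/fl arrays on the x axis and −log10 of the unadjusted limma p on the y axis. The 12 lower clusters (blue) and 3 higher clusters (red) past an adjusted p of 0.05 lie at the top, and Hsph1, Hspa1b, Mt1 and Mt2 lie farthest from 0 among the clusters marked.

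All 15 clusters differed in the same direction in S-IECs and in L-IECs, and in neither tissue did the genotypes overlap. The 15 were selected by the additive fit on these same arrays, which favours both features, so this is no separate test. Over all clusters tested, 1.08% were lower and 0.71% were higher in Nfat5IEC-KO arrays without overlap in either tissue. Together these were 454 clusters, while 273 clusters without overlap in either tissue differed in opposite directions. The size was not equal in the tissues. The median size of the difference was 0.79 in S-IECs and 0.55 in L-IECs, against 0.13 and 0.10 over all clusters. Of the 15 differences, 12 were larger in S-IECs. Over all clusters with 1 direction in both tissues, 7917 of 13225 were larger in S-IECs. Among such clusters at an unadjusted p under 0.05, this held for 1102 of 1429 lower and 820 of 1215 higher ones. A larger difference in S-IECs was therefore not particular to the 15.

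Stricter questions gave no adjusted call. A joint test, which asks that a cluster differ in both tissues, had a smallest adjusted p of 0.885 (limma), and at an unadjusted p under 0.05 it took 135 clusters as lower (0.533%) and 82 as higher (0.324%). The interaction of genotype and tissue had a smallest adjusted p of 0.0609 (limma), with 2744 clusters (10.8%) at an unadjusted p under 0.05. Of the 15 clusters, 4 had an interaction at an unadjusted p under 0.05: Slc38a2, Stip1, Mt1 and Zfp28.

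**Figure D2:**
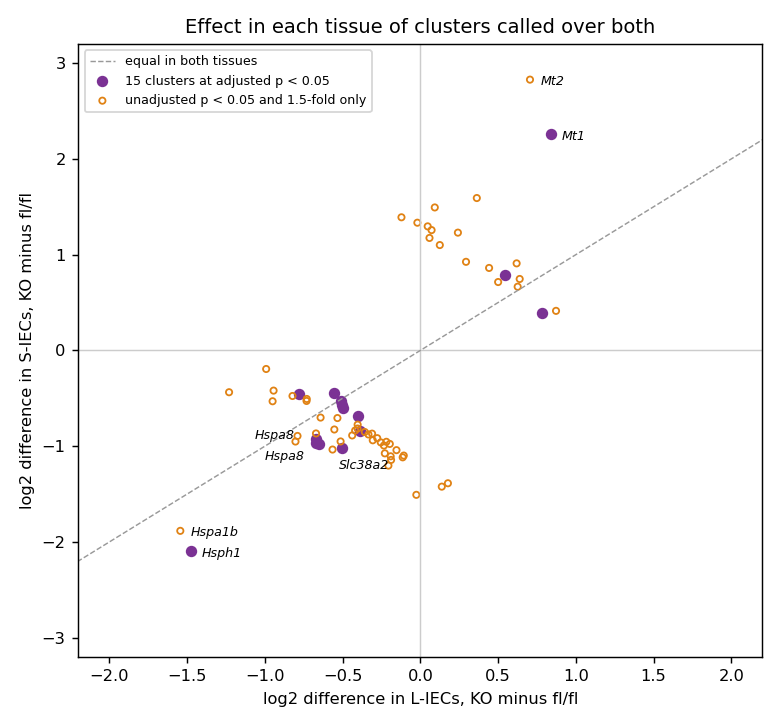
The log2 difference of Nfat5IEC-KO minus Nfat5fl/fl in L-IECs (x axis) is set against that in S-IECs (y axis) for the 15 clusters at an adjusted p under 0.05 (filled) and for the others past the looser call (open). The filled points lie below 0 in both tissues or above 0 in both, while several open points lie near 0 in L-IECs.

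The 12 lower clusters held 5 of 3 genes of the HSP70 cycle, Hsph1, Hspa8 and Stip1, a grouping made with the calls known. Hsph1 encodes HSP110, the nucleotide exchange factor that lets HSP70 release its client, at chr5:149616843-149636498 in GRCm38.p6. Its log2 values were 5.41, 6.33 and 5.81 in Nfat5IEC-KO S-IECs, against 8.21, 8.32 and 7.31 in Nfat5fl/fl S-IECs. In L-IECs they were 6.49, 6.33 and 6.24 in Nfat5IEC-KO arrays, against 8.16, 8.03 and 7.31 in Nfat5fl/fl arrays. Every Nfat5IEC-KO array was below every Nfat5fl/fl array of either tissue, and Nfat5fl/fl replicate 3 was the lowest control in each. The log2 difference was −1.79 (standard error 0.21, limma adjusted p = 0.0138), with −2.10 in S-IECs and −1.48 in L-IECs.

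Hspa8 encodes the constitutive HSP70 of the cytosol, which cells carry without stress. The array holds 4 clusters annotated to it alone, and 2 of them are all but the same measurement, differing by at most 0.0595 in any array. The first of this pair (17548744) was at 8.20, 8.28 and 8.19 in Nfat5IEC-KO S-IECs, against 9.21, 9.46 and 8.89 in Nfat5fl/fl S-IECs. In L-IECs it was at 8.96, 8.90 and 8.94 in Nfat5IEC-KO arrays, against 9.75, 9.67 and 9.39 in Nfat5fl/fl arrays. The knockout arrays of a tissue lay within 0.1 of each other while the controls spread wider, replicate 3 again being the lowest. The log2 difference was −0.82 (standard error 0.10, limma adjusted p = 0.0138). Another called cluster (17434475) differed by −0.52 (limma adjusted p = 0.0488), and the brightest (17516365) by −0.52 (limma adjusted p = 0.0564), just outside the threshold.

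Hspa1b and Hspa1a encode the stress-inducible HSP70 and are near-identical neighbours on chromosome 17, so their probes may share transcripts. Hspa1b was at 5.35, 5.01 and 6.05 in Nfat5IEC-KO S-IECs, against 7.87, 7.77 and 6.43 in Nfat5fl/fl S-IECs. The L-IEC values were 5.90, 5.58 and 6.15 in Nfat5IEC-KO arrays, against 8.26, 7.56 and 6.45 in Nfat5fl/fl arrays. The groups did not overlap, but Nfat5fl/fl replicate 3 came within 0.38 and 0.30 of the highest knockout array in S-IECs and L-IECs. The difference of −1.71 was nearly that of Hsph1, with a wider error (standard error 0.30, limma adjusted p = 0.0587). It passed in 4 of 24 alternative analyses. Leaving out 1 array at a time gave adjusted p between 0.0147 and 0.182 (limma), under 0.05 only without Nfat5fl/fl replicate 3 of S-IECs or of L-IECs, the controls nearest the knockout arrays. Hspa1a, named here after its values were seen, differed by −0.88 (limma adjusted p = 0.0978). A dimmer cluster annotated to both genes, also named after its values were seen, differed by −0.68 (limma adjusted p = 0.184). Its genotypes overlapped in S-IECs (−0.42) and were apart in L-IECs (−0.94).

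Stip1 encodes the adaptor that holds HSP70 and HSP90 together. It was at 6.28, 6.62 and 6.39 in Nfat5IEC-KO S-IECs, against 7.21, 7.42 and 7.20 in Nfat5fl/fl S-IECs, and at 7.13, 7.11 and 7.08 in Nfat5IEC-KO L-IECs, against 7.62, 7.47 and 7.40 in Nfat5fl/fl L-IECs. The groups were apart in both tissues and the difference was −0.62 (standard error 0.10, limma adjusted p = 0.0436). Chordc1, an HSP90 co-chaperone named after its values were seen, had no overlap in either tissue and a difference of −0.63 (limma adjusted p = 0.0564). So did Dnaja1;Mir207, a cluster that covers an HSP70 J-domain partner, at −0.52 (limma adjusted p = 0.0945). Dnajb1, another J-domain gene, overlapped in both tissues and differed by only −0.05 (limma adjusted p = 0.870).

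**Figure D3:**
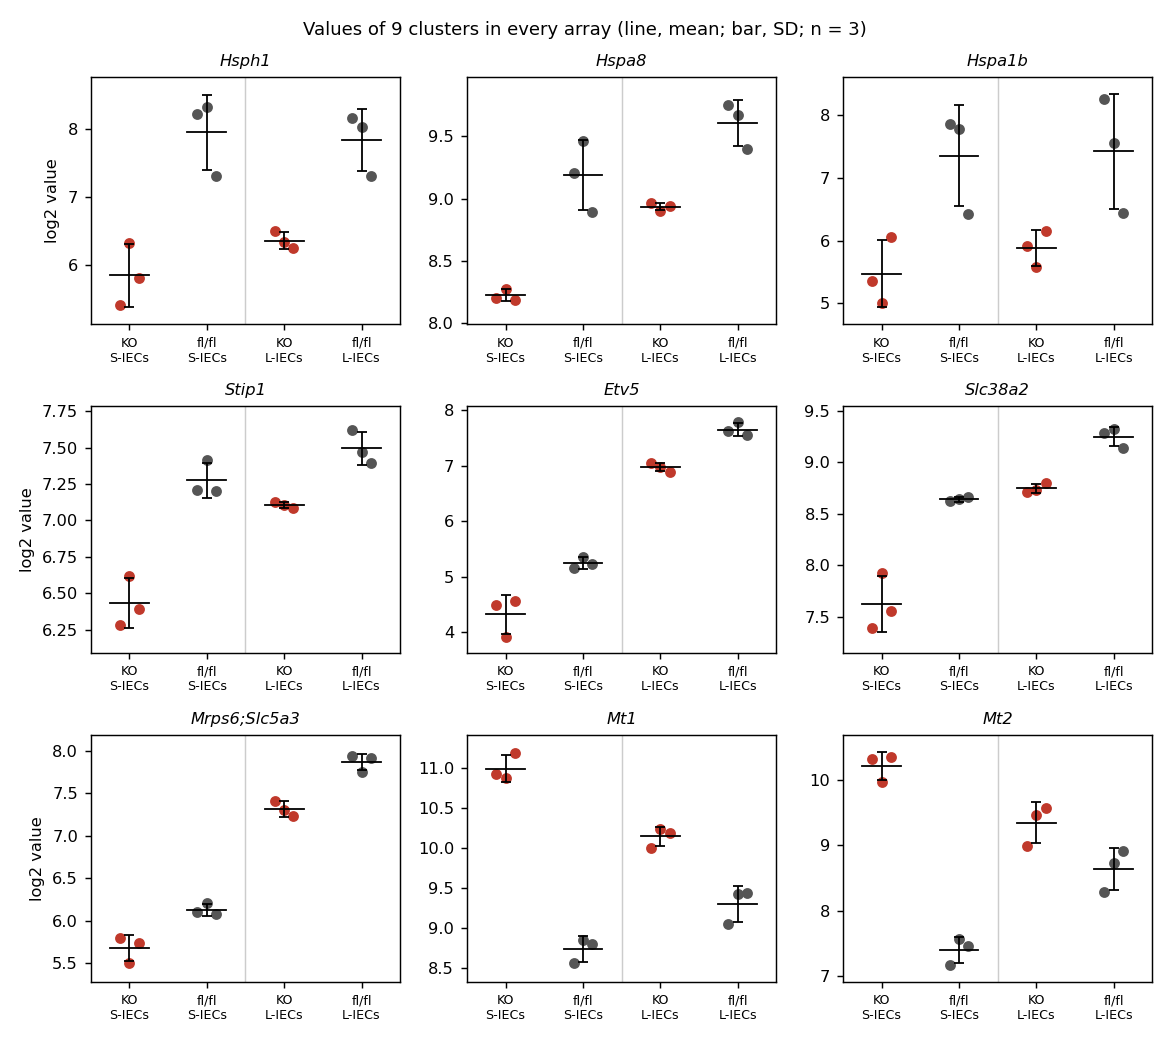
Log2 values of 9 clusters in every array, with Nfat5IEC-KO arrays (red) left of Nfat5fl/fl arrays (grey) in S-IECs and then in L-IECs. Lines are group means and bars the SD of 3 arrays. The genotypes are apart in both tissues in every panel, and for Hsph1, Hspa8 and Hspa1b Nfat5fl/fl replicate 3 is the lowest control.

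The rest of the chaperone lists moved less. Of 15 measured HSP70 and HSP110 genes, each read from its brightest cluster, 1 was lower after adjustment and 10 at an unadjusted p under 0.05, a share to be read against 6.02% lower and 4.91% higher over all clusters. None was higher. The list's median log2 difference was −0.31, with −0.36 in S-IECs and −0.16 in L-IECs, against 0.01 over all clusters. Its mean per array was 6.42 to 6.60 in Nfat5IEC-KO S-IECs, against 6.89 to 7.23 in Nfat5fl/fl S-IECs. In L-IECs it was 6.71 to 6.75 in Nfat5IEC-KO arrays, against 6.83 to 7.23 in Nfat5fl/fl arrays. The lowest control in each tissue was again replicate 3.

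Among 37 measured HSP90, chaperonin, small heat shock protein and co-chaperone genes, Stip1 was the 1 lower at the adjusted threshold, 18 were lower and 0 higher at an unadjusted p under 0.05, and the median was −0.20. Hsp90aa1, the inducible HSP90, differed by −0.50 (limma adjusted p = 0.138). The mitochondrial chaperonin genes Hspd1 and Hspe1 differed by −0.60 and −0.47 (limma adjusted p = 0.135 and 0.222). Their differences were −0.92 and −0.84 in S-IECs and only −0.28 and −0.11 in L-IECs. Bag3, a nucleotide exchange factor, was at −0.26 in S-IECs and −0.27 in L-IECs (limma adjusted p = 0.185 over both).

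RefSeq promoters of GRCm38.p6, windows of 300 bases that reach from upstream of each start to shortly past it, were searched on both strands for paired heat shock units, GAANNTTC and TTCNNGAA, the half-sites that heat shock factors bind. Either unit occurred in 15.1% of 32851 promoters, 2 or more units in 1.96% and 4 or more in 0.0304%. Hsph1 held 3 and Chordc1 5, while Hspa1b and Hspa1a held 1 each and Stip1 held 0. Csl, which was called higher, also held 1, as did 1 of 2 Etv5 promoters and 1 of 3 Dnaja1 promoters. Sgk1 promoters held between 0 and 2. With capitals marking the units, the stretches of Hsph1, Chordc1, Hspa1b and Hspa1a are shown because these genes differ in how many they hold. Those of Hspa1b and Hspa1a are identical. They are chr5:149636287-149636379 on the minus strand, chr9:18292253-18292316 on the plus strand, chr17:34959325-34959352 on the minus strand and chr17:34972243-34972270 on the minus strand, in that order.
Hsph1: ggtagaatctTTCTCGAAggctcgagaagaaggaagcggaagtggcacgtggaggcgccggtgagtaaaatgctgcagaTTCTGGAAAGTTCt
Chordc1: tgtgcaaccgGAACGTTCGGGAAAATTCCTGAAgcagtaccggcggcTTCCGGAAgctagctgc
Hspa1b: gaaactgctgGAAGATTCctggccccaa
Hspa1a: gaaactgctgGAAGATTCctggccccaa
The core of the NFAT5 element, TGGAAA, occurred in 21.4% of all promoters and once each in Hsph1 and Sgsm3. It occurred in none of Slc38a2, Slc5a3, Stip1, Hspa1a, Hspa1b, Chordc1, Etv5, Defa21 and Syvn1. Of the 6 Sgk1 promoters some held it once and the others did not. Among the largest rises, Enpp3 and Slc5a4a held it once each. Hspa8, Scgb1b19, Slc6a6 and Hsp90aa1 had no promoter entry and were not searched. In the Hsph1 stretch the NFAT5 core overlaps the second run of capitals. A match describes these letters only.

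Transporters that NFAT5 is known to raise were the next group. Slc38a2 encodes SNAT2, a sodium-coupled transporter of small neutral amino acids that responds to hypertonicity and to amino acid shortage. It was at 7.39, 7.92 and 7.55 in Nfat5IEC-KO S-IECs, against 8.62, 8.64 and 8.66 in Nfat5fl/fl S-IECs. Its L-IEC values were 8.72, 8.73 and 8.80 in Nfat5IEC-KO arrays, against 9.29, 9.32 and 9.14 in Nfat5fl/fl arrays. The groups were apart in each tissue, and the difference was −0.76 over both (standard error 0.11, limma adjusted p = 0.0227), −1.02 in S-IECs and −0.50 in L-IECs.

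Slc5a3 encodes SMIT1, the sodium/myo-inositol cotransporter, and shares its cluster with Mrps6, a mitochondrial ribosomal protein gene whose locus holds it, so the transcripts cannot be told apart. The cluster was at 5.80, 5.50 and 5.73 in Nfat5IEC-KO S-IECs, against 6.10, 6.20 and 6.08 in Nfat5fl/fl S-IECs. In L-IECs it was at 7.41, 7.30 and 7.23 in Nfat5IEC-KO arrays, against 7.93, 7.75 and 7.91 in Nfat5fl/fl arrays. Again no knockout array reached a control, and the difference was −0.50 (standard error 0.08, limma adjusted p = 0.0309). Slc6a6, the taurine transporter, named after its values were seen, was at 9.24 to 9.33 in Nfat5IEC-KO S-IECs, against 9.63 to 9.80 in Nfat5fl/fl S-IECs, and at 8.70 to 8.99 in Nfat5IEC-KO L-IECs, against 9.11 to 9.35 in Nfat5fl/fl L-IECs. Its difference was −0.42 (standard error 0.08, limma adjusted p = 0.0596).

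The list of osmoprotective NFAT5 targets as a whole was less uniform. Of 12 measured genes, Slc38a2 was the 1 lower at the adjusted threshold. At an unadjusted p under 0.05, 4 were lower and 0 higher, and the median was −0.09. The shared Mrps6;Slc5a3 cluster, itself lower at the adjusted threshold, is not among the 12. Slc6a12, the betaine transporter, differed by 0.07 (limma adjusted p = 0.77). Of 25 ATF4 target and serine synthesis genes, a list that also holds Slc38a2, 7 were lower and 1 higher at an unadjusted p under 0.05. Slc1a4, a neutral amino acid exchanger, differed by −0.67 (limma adjusted p = 0.162), and Trib3, a pseudokinase that ATF4 raises, by 0.36 (limma adjusted p = 0.31).

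Sgk1 encodes a kinase that is raised both by hypertonicity and by corticosteroids, and Fkbp5 a co-chaperone of the glucocorticoid receptor that the receptor itself raises. Neither passed the adjusted threshold. Sgk1 was at 8.26, 8.09 and 8.62 in Nfat5IEC-KO S-IECs, against 9.43, 9.36 and 8.86 in Nfat5fl/fl S-IECs, and at 7.20, 6.85 and 7.45 in Nfat5IEC-KO L-IECs, against 8.16, 8.32 and 7.39 in Nfat5fl/fl L-IECs. In L-IECs the groups overlapped at Nfat5fl/fl replicate 3. The differences were −0.84 for Sgk1 and −0.73 for Fkbp5 (limma adjusted p = 0.0995 and 0.0978), and Sgk1 passed in 1 of 24 alternative analyses, without that overlapping control (adjusted p = 0.0223, against up to 0.242 without 1 of the other arrays). Of the 19 measured genes of the SGK1 and corticosteroid list, 7 were lower and 0 higher at an unadjusted p under 0.05.

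Etv5 encodes an ETS transcription factor that ERK signalling raises. It was at 4.49, 3.93 and 4.57 in Nfat5IEC-KO S-IECs, against 5.15, 5.36 and 5.24 in Nfat5fl/fl S-IECs. In L-IECs, where it was brighter, it was at 7.05, 6.98 and 6.90 in Nfat5IEC-KO arrays, against 7.62, 7.78 and 7.54 in Nfat5fl/fl arrays. The groups were apart in both tissues and the difference was −0.80 (standard error 0.11, limma adjusted p = 0.0158). The related Etv4 differed by 0.14 (limma adjusted p = 0.65). Of 20 ERK feedback and ETS genes, Etv5 was the 1 at the adjusted threshold and 5 in all passed an unadjusted p under 0.05 as lower, Spred1 and Spry4, which restrain ERK signalling, among them at −0.40 and −0.34 (limma adjusted p = 0.16 and 0.338).

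Syvn1 encodes HRD1, the ubiquitin ligase that sends misfolded proteins of the endoplasmic reticulum to degradation. It was at 7.60, 7.78 and 7.70 in Nfat5IEC-KO S-IECs, against 8.52, 8.40 and 8.20 in Nfat5fl/fl S-IECs. The L-IEC values were 7.37, 7.50 and 7.35 in Nfat5IEC-KO arrays, against 7.87, 7.82 and 7.72 in Nfat5fl/fl arrays. The groups were apart in both tissues, with a difference of −0.54 (standard error 0.08, limma adjusted p = 0.0374). Of 29 unfolded protein response genes, Syvn1 was the 1 at the adjusted threshold and an unadjusted p under 0.05 took 14 as lower and 1 as higher, with a median of −0.19. Hspa5, the HSP70 of the endoplasmic reticulum, differed by −0.58 (limma adjusted p = 0.135), and its group means were −0.85 apart in S-IECs and −0.31 in L-IECs.

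Sgsm3, a GTPase activating protein for small RAB proteins, differed by −0.55 (limma adjusted p = 0.0488). Its values were 5.88 to 6.28 in Nfat5IEC-KO S-IECs, against 6.53 to 6.85 in Nfat5fl/fl S-IECs, and 7.25 to 7.59 in Nfat5IEC-KO L-IECs, against 7.89 to 7.94 in Nfat5fl/fl L-IECs. No knockout array reached a control of its tissue. Scgb1b19, of the androgen-binding secretoglobins, was among the dimmest clusters called, at 1.70 in all 3 Nfat5IEC-KO S-IEC arrays against 2.13 to 2.42 in Nfat5fl/fl S-IECs, and its difference of −0.54 (limma adjusted p = 0.0217) lies near the floor of the scale.

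Defa21 encodes an alpha-defensin, an antimicrobial peptide of the Paneth cells at the base of ileal crypts. It was at 12.6, 13.0 and 12.7 in Nfat5IEC-KO S-IECs, against 13.2, 13.3 and 13.2 in Nfat5fl/fl S-IECs. Colon normally lacks Paneth cells, and in L-IECs it was at 4.22, 4.11 and 4.31 in Nfat5IEC-KO arrays, against 5.04, 4.89 and 5.05 in Nfat5fl/fl arrays. The L-IEC values lie around the array medians of 4.48 to 4.57, so the colonic side of the difference was read among dim clusters, and the high level came from S-IECs alone. The groups were apart in both tissues, with a difference of −0.62 (standard error 0.09, limma adjusted p = 0.0309). Alpha-defensin genes are near-identical copies, so the probes cannot assign the signal to 1 gene. The other 16 of 17 measured Paneth genes missed the adjusted threshold.

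The Paneth list as a whole went with ileum. Its median was −0.30 over both tissues, −0.82 in S-IECs and 0.09 in L-IECs. Its mean was 7.93, 8.74 and 7.78 in Nfat5IEC-KO S-IECs, against 8.78, 9.06 and 9.01 in Nfat5fl/fl S-IECs, and 5.52 to 5.79 in Nfat5IEC-KO L-IECs, against 5.32 to 5.77 in Nfat5fl/fl L-IECs. Nfat5IEC-KO S-IECs replicate 2 was just below the lowest control and the other knockout S-IEC arrays lay well below it. In bulk RNA, fewer cells of a type and less RNA per cell cannot be told apart.

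Metallothioneins, which hold zinc and copper in the cytosol, held the largest rises. Mt1 is at chr8:94178883-94180327 in GRCm38.p6. It was at 10.9, 10.9 and 11.2 in Nfat5IEC-KO S-IECs, against 8.56, 8.86 and 8.80 in Nfat5fl/fl S-IECs. Its L-IEC values were 10.01, 10.2 and 10.2 in Nfat5IEC-KO arrays, against 9.05, 9.43 and 9.44 in Nfat5fl/fl arrays. Every knockout array was above every control of both tissues. The log2 difference was 1.55 (standard error 0.21, limma adjusted p = 0.0158), with 2.26 in S-IECs and 0.84 in L-IECs.

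Mt2, its neighbour, was at 10.3, 9.97 and 10.4 in Nfat5IEC-KO S-IECs, against 7.17, 7.56 and 7.45 in Nfat5fl/fl S-IECs. In L-IECs it was at 8.99, 9.47 and 9.58 in Nfat5IEC-KO arrays, against 8.29, 8.74 and 8.91 in Nfat5fl/fl arrays. The groups were apart in both tissues, but in L-IECs the lowest knockout array was only 0.08 above the highest control. The difference was 1.77 (standard error 0.31, limma adjusted p = 0.0564), with a within-tissue difference of 2.83 (S-IECs) or 0.70 (L-IECs). Of 22 measured genes for metallothioneins and zinc handling, 4 were higher and 2 lower at an unadjusted p under 0.05, and the median was 0.02. The list's mean, which includes Mt1 and Mt2, was 7.30 to 7.41 in Nfat5IEC-KO S-IECs, against 7.07 to 7.15 in Nfat5fl/fl S-IECs, and 7.18 to 7.19 in Nfat5IEC-KO L-IECs, against 7.06 to 7.11 in Nfat5fl/fl L-IECs. Mt4 differed by 0.79 (limma adjusted p = 0.227), with 1.49 in S-IECs and 0.09 in L-IECs. Mtf1, the factor that senses zinc and turns metallothioneins on, differed by −0.19 (limma adjusted p = 0.35).

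The metal response element, searched as TGCACNC and TGCGCNC on both strands, occurred in 25.7% of promoters, and 4 or more copies in 0.517%. Mt1 held 3 and Mt2 held 4. The stretches are shown because these neighbours were the largest rises, with the elements in capitals, at chr8:94179056-94179125 and chr8:94172385-94172638, both on the plus strand.
Mt1: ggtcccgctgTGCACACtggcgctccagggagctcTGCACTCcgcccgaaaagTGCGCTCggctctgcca
Mt2: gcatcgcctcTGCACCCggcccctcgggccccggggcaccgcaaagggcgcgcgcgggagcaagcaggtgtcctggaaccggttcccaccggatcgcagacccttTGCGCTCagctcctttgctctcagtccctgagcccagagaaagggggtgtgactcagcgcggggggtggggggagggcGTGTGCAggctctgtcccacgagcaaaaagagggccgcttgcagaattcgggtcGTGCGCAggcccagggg

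The other higher calls were dim. Zfp28, a zinc finger gene of the KRAB kind, was at 4.34 to 4.62 in Nfat5IEC-KO S-IECs, against 3.96 to 4.22 in Nfat5fl/fl S-IECs, and at 4.65 to 4.70 in Nfat5IEC-KO L-IECs, against 3.71 to 4.01 in Nfat5fl/fl L-IECs. Its difference was 0.59 (limma adjusted p = 0.0436), and it was larger in L-IECs than in S-IECs. Csl, a citrate synthase-like gene, was at 3.74 to 4.17 in all Nfat5IEC-KO arrays, against 2.93 to 3.52 in all Nfat5fl/fl arrays, with a difference of 0.67 (limma adjusted p = 0.0436). Among the largest rises past the looser call were genes of the absorptive epithelium. Enpp3, a nucleotide hydrolase of the brush border, differed by 0.98, Slc23a1, a vitamin C transporter, by 0.74, and Lct, lactase, by 0.61 (limma adjusted p = 0.123, 0.171 and 0.4). Their differences in L-IECs were 0.36, 0.24 and 0.12, against 1.59, 1.23 and 1.10 in S-IECs.

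An additive difference can thus rest on 1 tissue. Of the 66 clusters past the looser call, 25 had no overlap in both tissues, 37 in only 1, and 4 in neither, and 4 differed in opposite directions. Over all 25341 clusters tested, 454 were without overlap in both tissues in 1 direction, and 17896 overlapped in both. The 66 were selected on these same arrays, which favours groups without overlap, so these counts are no separate test. The gene lists also moved unequally in the tissues. Of 43 ribosome biogenesis genes, 28 were lower and 0 higher at an unadjusted p under 0.05 and 0 passed the adjusted threshold, with a median of −0.35 over both tissues, −0.66 in S-IECs and −0.06 in L-IECs. Wdr12 and Noc3l, which build the large ribosomal subunit, came nearest, at −0.51 and −0.55 (limma adjusted p = 0.0564 and 0.0609), and neither overlapped in either tissue. Of 35 mitosis genes 13 were lower at that unadjusted threshold, and the medians were −0.51 (S-IECs) and 0.05 (L-IECs). Mki67, a marker of dividing cells, differed by −0.87 in S-IECs and −0.03 in L-IECs.

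**Figure D4:**
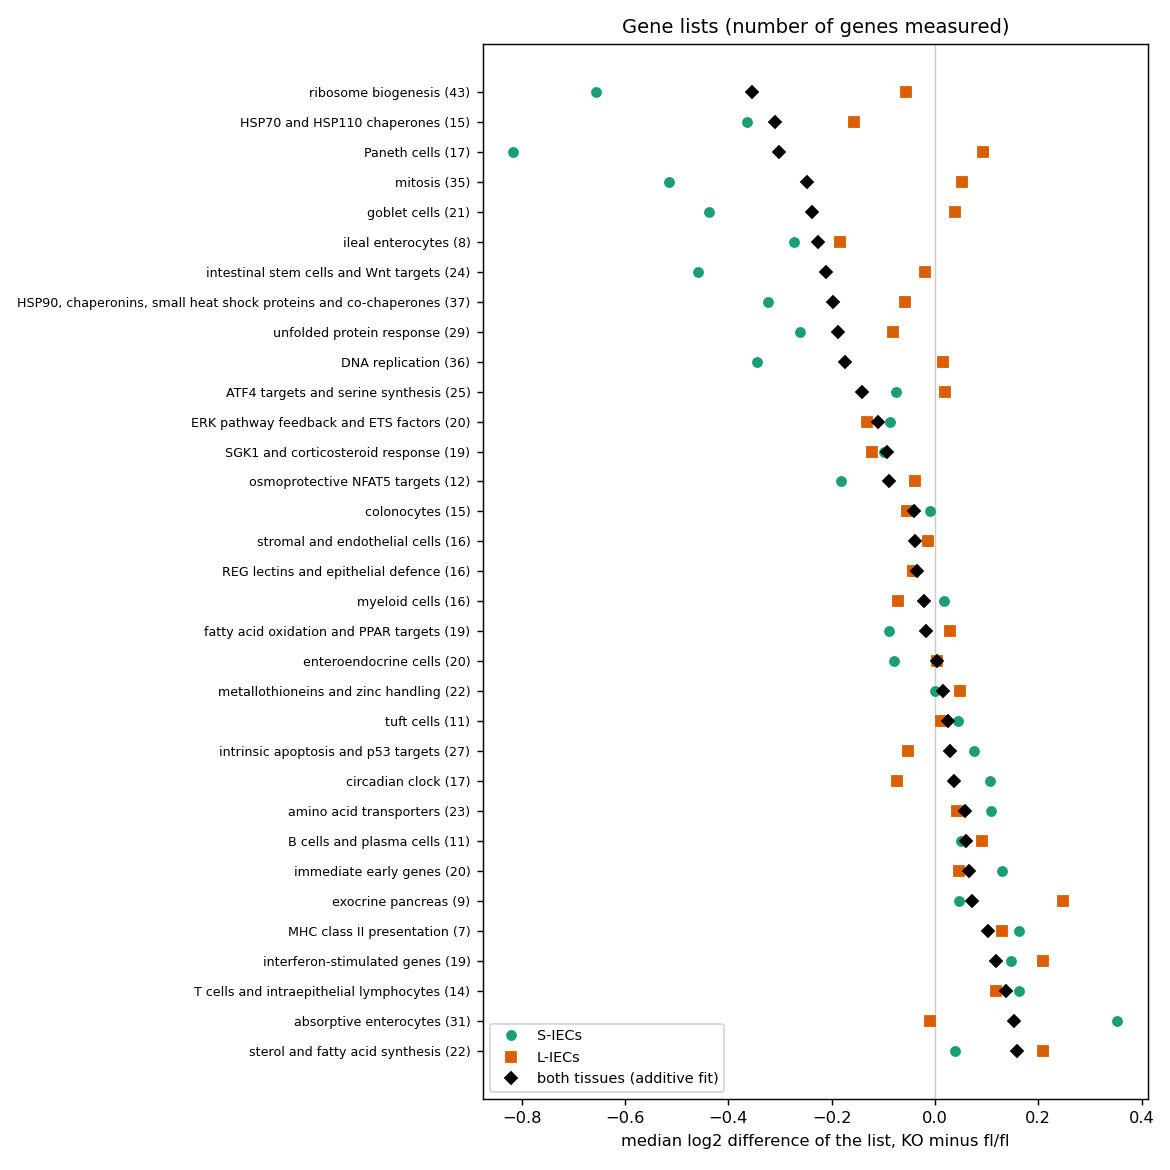
Median log2 difference, Nfat5IEC-KO minus Nfat5fl/fl, of each of 33 gene lists in S-IECs (circles), in L-IECs (squares) and over both tissues (diamonds), with the number of genes measured beside each name. For ribosome biogenesis, Paneth cells and mitosis the circle lies far below 0 and the square near it, while the HSP70 and HSP110 list is below 0 in both tissues.

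Marker lists of cell types were read from the same arrays. Absorptive enterocyte genes had 13 of 31 higher and 0 lower at an unadjusted p under 0.05, medians of 0.35 (S-IECs) and −0.01 (L-IECs), and per-array means of 9.88 to 10.1 in Nfat5IEC-KO S-IECs, against 9.38 to 9.65 in Nfat5fl/fl S-IECs. In L-IECs the means were 6.25 to 6.29 in Nfat5IEC-KO arrays, against 6.21 to 6.36 in Nfat5fl/fl arrays. Of 24 stem cell and Wnt genes 6 were lower and 1 higher at an unadjusted p under 0.05. Of 21 goblet genes 7 were lower and 0 higher at that threshold, against 6.02% lower and 4.91% higher over all clusters. The medians were −0.46 (S-IECs) and −0.02 (L-IECs) for stem cell and Wnt genes. For goblet genes they were −0.44 (S-IECs) and 0.04 (L-IECs). Spdef, the transcription factor that goblet and Paneth cells need to mature, was an exception to the ileal pattern at −0.54 in S-IECs and −0.44 in L-IECs (−0.49 over both, limma adjusted p = 0.0596). T cell and intraepithelial lymphocyte genes had 1 of 14 higher, B cell and plasma cell genes 1 of 11 higher, and myeloid and stromal genes 1 of 16 lower each. These single genes are to be read against 4.91% higher and 6.02% lower over all clusters, and no shift is read from them. The part of the enterocyte, stem cell and goblet shifts in the chaperone, transporter and metallothionein differences was not tested.

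**Figure D5:**
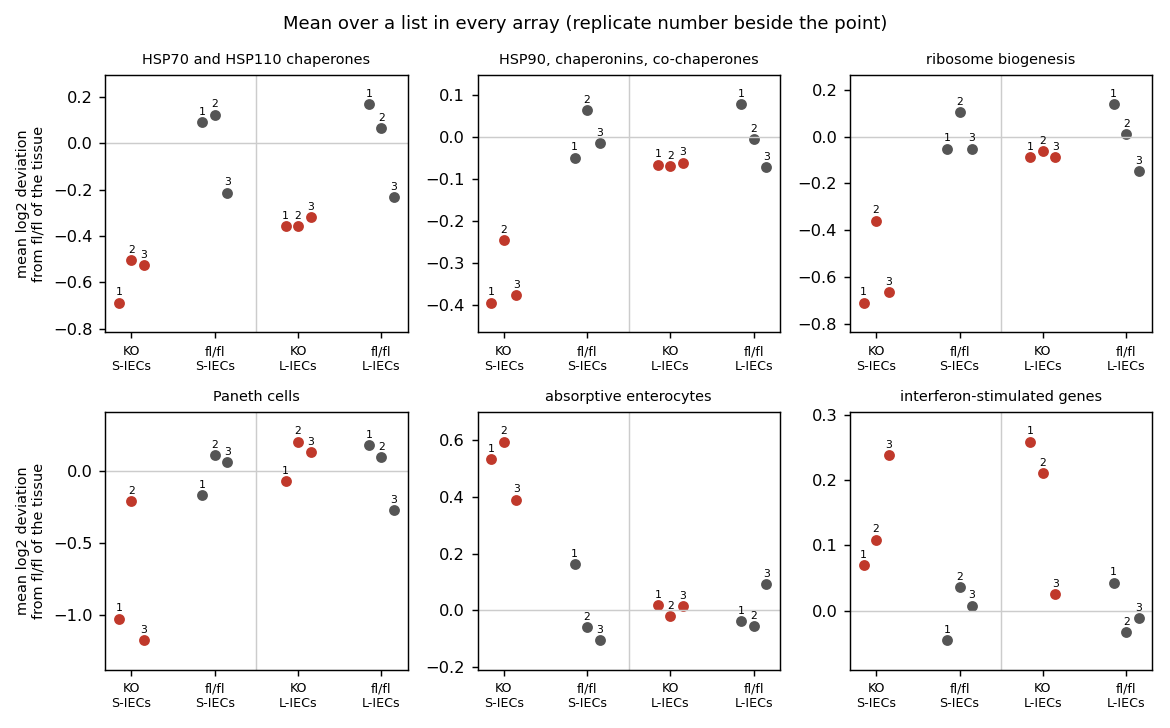
Mean log2 value of 6 gene lists in every array, as the deviation from the mean of the Nfat5fl/fl arrays of the same tissue, with Nfat5IEC-KO arrays (red) left of Nfat5fl/fl arrays (grey) and the replicate number beside each point. In the HSP70 and HSP110 panel replicate 3 is the lowest control of each tissue, and the Paneth panel shows Nfat5IEC-KO S-IECs replicate 2 apart from replicates 1 and 3.

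The calls were few enough that single arrays decided their number. Without Nfat5fl/fl S-IECs replicate 1 or without Nfat5fl/fl L-IECs replicate 1 no cluster passed the adjusted threshold, Hsph1, the paired Hspa8 clusters and Mt1 then standing at an adjusted p of 0.054 and 0.0504 (limma). Without Nfat5fl/fl L-IECs replicate 3 there were 28 lower and 9 higher clusters, and 14 of the 15 stayed. Hsph1 and the paired Hspa8 clusters passed in 20 of 24 alternative analyses and Mt1 in 19 of 24. The others passed less often, and 7 of the 15 passed in at most 11 alternatives: Sgsm3 and Syvn1 in 11 of 24, Stip1 in 10 of 24, Mrps6;Slc5a3 in 10 of 23, the remaining Hspa8 cluster in 9 of 24, Csl in 9 of 23 and Zfp28 in 8 of 23. All 15 kept their direction wherever they were measured.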

How the data were processed

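Gene expression was measured on 12 Affymetrix Mouse Gene 2.0 ST arrays. The values deposited by the authors are log2 summaries per transcript cluster, made in Transcriptome Analysis Console against mm10. The sources used here give neither its version and normalization nor scan dates, so batches could not be examined. Values ran from 0.742 to 13.8, and for arrays their number limits the precision. Symbols came from the platform annotation (23525 clusters with 1 symbol, 1816 with several, 16004 with none, left out), and coordinates and promoters from RefSeq GRCm38.p6, matched by Entrez identifier for 23328 clusters. No dim cluster was filtered.

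The fit used R 4.3.3 and limma 3.58.1 (lmFit, eBayes, Benjamini-Hochberg) with terms for tissue and genotype. Pairing of tissues by mouse was read from the sample titles, and residuals of S-IECs and L-IECs of a mouse correlated at −0.0375 to 0.0532. A fit of 4 group means gave the joint and interaction tests. The script was tested on simulated data. Named genes were the 12 largest falls and 12 largest rises called with 1 sign in both tissues (completed from the looser call) and up to 4 genes per list, or its best 2. The members and lists were chosen with earlier results of these data known. Chordc1, Hspa1a, Dnaja1, Slc6a6, Hsp90aa1, Hspa5, Hspd1, Hspe1, Bag3, Etv4, Spred1, Spry4, Trib3, Slc6a12, Mtf1, Per1, Fabp6 and Car1 were named after their values were seen.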

Additional observations from a re-analysis of the deposited data

Results flagged for a closer look

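Of the 15 clusters called over both tissues, 4 had effects that differed between ileum and colon at an unadjusted p under 0.05 in the interaction contrast of limma, and none did so after adjustment. For Mt1 the log2 difference of Nfat5IEC-KO minus Nfat5fl/fl was larger by 1.41 in S-IECs than in L-IECs (limma adjusted p = 0.0732). Slc38a2 differed by −0.51 more in S-IECs than in L-IECs (limma adjusted p = 0.314), and Stip1 by −0.45 (limma adjusted p = 0.323). For Zfp28 the rise was smaller in S-IECs, by −0.39 (limma adjusted p = 0.410). Each of the 4 kept 1 direction in both tissues.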

How the results depend on the processing

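With 3 arrays in a group the counts of calls moved with most settings, and dim clusters limit the small log2 differences. At an adjusted p under 0.05 the counts of lower and higher clusters, 12 and 3, became 34 and 8 with eBayes trend and robust. They became 31 and 7 with clusters under a log2 mean of 4.53 left out, and 22 and 7 in a 4-group fit averaged over the tissues. A plain t-test on values centred within each tissue gave 30 and 14, and its degrees of freedom did not allow for the centring. The counts were 0 and 0 over every cluster of the table, 10 and 1 with array weights, and 8 and 1 after quantile normalization. Centring on the array median gave 15 and 3, and clusters with 1 symbol 11 and 3. At an unadjusted p under 0.05 and 1.5-fold, 46 and 20 became 205 and 133 over every cluster of the table, 30 lower with array weights, and 11 higher without dim clusters. The interaction, at 0 clusters, came to 84 with trend and robust, 6 without dim clusters and 1 over every cluster, and the joint test to 1 higher with trend and robust. No direction reversed among the 94 named clusters refitted under the alternatives, and another scaling moved the median of all clusters by at most 0.0121 in size.

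Leaving out 1 array at a time moved the adjusted calls between 0 and 28 lower and between 0 and 9 higher clusters, 26 to 88 lower and 12 to 35 higher by the looser call, 0 by the joint test in either direction, and 0 to 239 by the interaction, the last without Nfat5IEC-KO S-IECs replicate 2. The higher count was 0 without Nfat5fl/fl S-IECs replicate 1 or 2, Nfat5fl/fl L-IECs replicate 1 or Nfat5IEC-KO S-IECs replicate 1. Without 1 of the other arrays there were 4 to 11 lower clusters, some of them outside the 12, apart from the 28 without Nfat5fl/fl L-IECs replicate 3.

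With the mouse as a random replicate block, within genotype, there were 21 lower and 6 higher clusters, and with S-IECs and L-IECs of a mouse averaged 0 lower and 3 higher. With the bare replicate number as a fixed block there were 4 lower and 2 higher clusters, 6 of the 15 among them, and 2 by the interaction.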

Other observations

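Some lists outside the groups above are given by their counts, with no gene past the adjusted threshold of limma. Of 22 sterol and fatty acid synthesis genes, 6 were higher and 1 lower at an unadjusted p under 0.05, and the medians were 0.04 (S-IECs) and 0.21 (L-IECs). The list's mean was 7.60 to 7.82 in Nfat5IEC-KO S-IECs, against 7.58 to 7.98 in Nfat5fl/fl S-IECs, where the groups overlapped. Msmo1, a sterol demethylating oxidase, was at 7.65, 7.62 and 7.63 in Nfat5IEC-KO L-IECs, against 7.24, 7.17 and 7.09 in Nfat5fl/fl L-IECs, and differed by 0.32 over both tissues (limma adjusted p = 0.248). Its groups were apart in L-IECs and overlapped in S-IECs. Insig1, which holds back sterol synthesis and is raised by the same factor as its enzymes, differed by 0.40 (limma adjusted p = 0.258).

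Of 19 interferon-stimulated genes, 18 had a difference above 0 and 3 were higher at an unadjusted p under 0.05, against 4.91% higher over all clusters. The list was not tested as a set, and none of its genes had the groups apart in both tissues. Ifit1, which binds viral RNA, differed by 0.39 (limma adjusted p = 0.297), and Ddx58, the RNA sensor RIG-I, by 0.26 (limma adjusted p = 0.29). The list's mean was 5.24 to 5.41 in Nfat5IEC-KO S-IECs, against 5.13 to 5.21 in Nfat5fl/fl S-IECs, and 5.19 to 5.43 in Nfat5IEC-KO L-IECs, against 5.14 to 5.21 in Nfat5fl/fl L-IECs, where the groups overlapped.

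Of 27 apoptosis and p53 genes, Apaf1, the scaffold of the apoptosome, differed by 0.38 with no overlap in either tissue (limma adjusted p = 0.125), and Bcl2, which holds mitochondria intact, by −0.43, with −0.68 in S-IECs and −0.17 in L-IECs (limma adjusted p = 0.135). The list's median was 0.03. Among clock genes, Nr1d2 and Dbp differed by 0.32 and 0.43 and Per1 by −0.60 (limma adjusted p = 0.2, 0.225 and 0.287).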
